A study of Mus musculus with 8 samples.

Results

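The miR-99, miR-100 and miR-125 families were followed through the 3 tissues of the pubertal mouse mammary gland. They were represented by the 5 miRNAs whose name on the array was mmu-miR-99a, mmu-miR-99b, mmu-miR-100, mmu-miR-125a-5p or mmu-miR-125b-5p, of 611 mouse miRNAs on the array. All 8 samples were total RNA from female beta actin-GFP mice aged 5 weeks, of the FVB/n strain by the study's methods, with no treatment that differed between groups. The reporter protein makes the epithelial tree visible, so that tissue of mammary glands 2-5 could be cut out under a fluorescence microscope. There were 3 arrays of terminal end buds (TEBs), the proliferative structures at the advancing ends of the ducts, 2 arrays of mature ducts and 3 of distal stroma, the fat pad away from the epithelium. Each sample is whole micro-dissected tissue, and the labels do not say whether the replicates came from separate animals, so p-values measure only the spread between these samples, which may be technical.

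miRNAs are short RNAs that pair with messenger RNAs, mainly through the seed at bases 2 to 8, and lower the output of their targets. miR-99a, miR-99b and miR-100 form a family known for targeting Mtor, the kinase that couples nutrients to growth. miR-125a-5p and miR-125b-5p are the mammalian relatives of lin-4, a timing miRNA of the worm, and are known in breast cancer cells for targeting the growth factor receptors ERBB2 and ERBB3. In mammals the genes of both families lie next to each other and to a let-7 gene, in clusters that are thought to be transcribed together.

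The mature sequences are given 5′ to 3′ with the seed in capitals. The seeds define the families, and the few bases outside them separate the members of a family. They are RefSeq entries (GRCm38.p6), all 5 members matched, and RefSeq adds -5p to the array's names miR-99a, miR-99b and miR-100.
miR-99a: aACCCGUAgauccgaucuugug
miR-100: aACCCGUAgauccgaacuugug
miR-99b: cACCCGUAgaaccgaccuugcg
miR-125a-5p: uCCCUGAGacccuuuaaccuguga
miR-125b-5p: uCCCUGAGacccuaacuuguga

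miR-99a and miR-100 were identical at 21 of 22 bases and differed by the single substitution U16A, counted from 1 at the 5′ end with the base of miR-99a first. miR-99b differed from miR-99a at 4 positions (A1C, U11A, U16C and U21C), none of them in the seed. miR-125a-5p is 24 bases long and miR-125b-5p 22, and they shared their first 13 and their last 5 bases. The seed of miR-99a was held by 3 of the 1679 mature miRNAs in the RefSeq table, which were the 3 members of this family. The seed of miR-125 was held by 5, among them miR-351, which is on the array. Probe sequences were not analysed here, so how far a probe for miR-99a takes up miR-100, or a probe for miR-125a-5p takes up miR-125b-5p, was not tested.

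The genes lie in 3 clusters, all on the plus strand. Mir99b, Mirlet7e and Mir125a lie within 692 bases of chromosome 17, inside the protein-coding gene Spaca6, and their mature products were miR-99b at chr17:17830194-17830215, let-7e at chr17:17830366-17830387 and miR-125a-5p at chr17:17830817-17830840. Mir99a, Mirlet7c-1 and Mir125b-2 span 47408 bases of chromosome 16, with miR-99a at chr16:77598940-77598961, let-7c at chr16:77599672-77599693 and miR-125b-5p at chr16:77646279-77646300. Mir100, Mirlet7a-2 and Mir125b-1 span 50578 bases of chromosome 9, inside the long non-coding RNA gene Mir100hg, with miR-100 at chr9:41531437-41531458 and miR-125b-5p at chr9:41581940-41581961. Since miR-125b-5p has the same sequence from both of its genes, its signal is the sum of the chromosome 9 and chromosome 16 clusters, and the same holds for let-7a and let-7c, which also have genes elsewhere.

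The values are the scanner's total signal for a miRNA, corrected for background and scaled so that every array had the same 75th percentile over the 108 miRNAs that all 8 arrays detected. They are in arbitrary units and are compared between tissues only, since probes of different miRNAs need not respond alike. On each array 23.2% to 27.7% of the mouse miRNAs were detected, and log2 signals of the tested miRNAs correlated with r of 0.955 to 0.987 between arrays of the same tissue, across miRNAs that are not independent replicates. Of the 10 epithelial marker miRNAs listed, 8 could be tested, while miR-203 and miR-182 were detected on no array. Testing required detection on all arrays of at least 1 tissue, and these 8 were detected on no stroma array. That all 8 were called higher in TEBs and in ducts than in stroma was thus largely set by the filter. Of all 167 tested miRNAs, 34 were called higher in TEBs and 16 in ducts than in stroma. The summed signal of that list was 2059 to 2193 in TEBs, 2161 to 2391 in ducts and 2.71 to 16.6 in stroma, where miR-200a, miR-200b, miR-200c, miR-141, miR-205, miR-183 and miR-96 were at the floor of 1 unit on all 3 arrays. By these markers the stroma arrays held little epithelium, whereas the epithelial arrays also held signal for miR-199a-3p and miR-126-3p, markers of fibroblasts and of endothelium.

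miR-100 was the only member called between tissues with the scaling used here, and it was lower in TEBs than in both ducts and stroma. Its scaled signal was 105, 114 and 112 on the TEB arrays, 149 and 142 on the duct arrays, and 159, 145 and 148 on the stroma arrays. Each TEB array lay below every duct and stroma array, while duct and stroma arrays overlapped. The mean was 110 ± 5.09 in TEBs (SD, n = 3), 145 ± 4.73 in ducts (SD, n = 2) and 151 ± 6.98 in stroma (SD, n = 3). The signal in TEBs was 1.32-fold lower than in ducts, a log2 difference of -0.40 (SE 0.092, 95% interval -0.62 to -0.18, limma, adjusted p = 0.0242). Against stroma it was 1.37-fold lower, a log2 difference of -0.45 (SE 0.082, 95% interval -0.65 to -0.25, limma, adjusted p = 0.00395). Ducts and stroma differed by -0.05 on the log2 scale (95% interval -0.27 to 0.17, adjusted p = 0.793), so that no difference was detectable there. In whole tissue, fewer cells of a type and less miRNA per cell cannot be told apart.

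**Figure D1:**
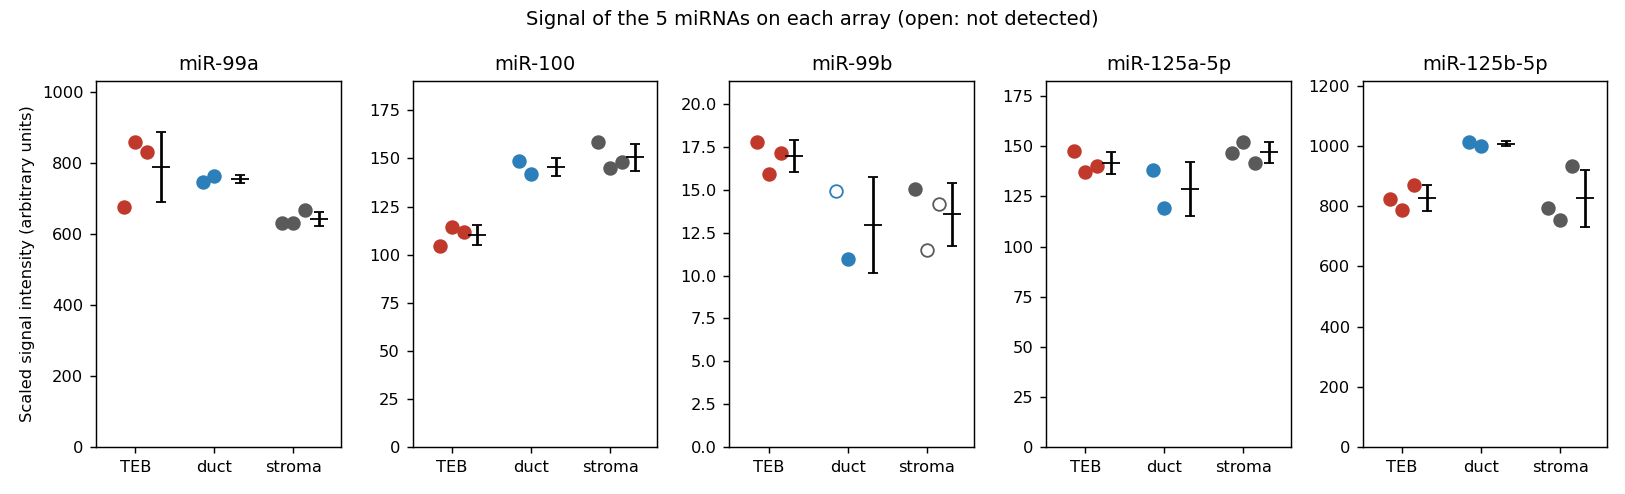
Scaled signal intensity (vertical axis, arbitrary units, starting at 0) of each of the 5 miRNAs on the 3 TEB, 2 duct and 3 stroma arrays. Points are arrays, open where the scanner did not call the miRNA detected, and bars give the mean ± SD of the tissue. For miR-100 the TEB arrays lie between 105 and 114 and all other arrays between 142 and 159.

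These differences of miR-100 stand against a background of many. Of the 167 miRNAs tested, 24.6% were called between TEBs and ducts, 64.7% between TEBs and stroma and 21.6% between ducts and stroma, at an adjusted p under 0.05. In the direction of miR-100, lower in TEBs, 13.2% of all tested miRNAs were called against ducts and 44.3% against stroma. Of the 5 members 1 was called against ducts, 1 against stroma and 0 between ducts and stroma, where 1 member had an unadjusted p under 0.05. By size, miR-100 ranked 114 from the top of the 167 log2 differences between TEBs and ducts, and 97 between TEBs and stroma, where the median of all tested miRNAs was itself -0.28.

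The level differences of miR-100 also depended on the scaling between arrays. Scaled to the 75th percentile of all mouse miRNAs, which lay at 11.5 to 29.9 units and thus at the edge of detection, the difference between TEBs and ducts turned to 0.15 (adjusted p = 0.680) and that to stroma shrank to -0.06 (adjusted p = 0.876). That scaling moved the median of all tested miRNAs from -0.10 to 0.45 between TEBs and ducts. Both scalings multiply each array by a single factor, so that miR-100 stayed equally far below the median, which is no separate support. The call against ducts was also lost with quantile normalisation (-0.19, adjusted p = 0.125) and in the deposited value table (-0.18, adjusted p = 0.153). Of 21 alternatives run for that difference, 10 kept its direction without passing and 1 turned it. Without any scaling the TEB and stroma signals overlapped, at 104 to 121 and 109 to 155 units, and the call against stroma was lost (-0.20, adjusted p = 0.353). The call against ducts was lost when TEB replicate 1, TEB replicate 2, duct replicate 1 or duct replicate 2 was left out, with log2 differences of -0.43 to -0.36, whereas the call against stroma was kept without any single array.

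miR-99a, which differs from miR-100 by that single base, had its highest mean in TEBs and its lowest in stroma, but no difference passed the test. Its scaled signal was 674, 858 and 831 in TEBs, 745 and 761 in ducts, and 630, 631 and 665 in stroma. Every TEB and duct array lay above every stroma array, and TEBs and ducts overlapped. The log2 difference was 0.29 between TEBs and stroma (SE 0.11, 95% interval 0.02 to 0.56, adjusted p = 0.0602), 0.23 between ducts and stroma (adjusted p = 0.247) and 0.06 between TEBs and ducts (adjusted p = 0.746). With TEB and duct arrays pooled against stroma the difference was 0.27, with an exact two-sided permutation p of 0.0536 where the smallest possible is 0.0179. The first TEB array was the lowest of its tissue, and without it the difference between TEBs and stroma was 0.40 and passed (adjusted p = 0.00929). It passed too without scaling (0.54), with normexp background correction (0.26) and with a robust fit (0.29), and was positive under all 21 alternatives.

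miR-99b, the third member of this seed family, was close to the limit of detection. Its scaled signal was 17.8, 15.9 and 17.2 in TEBs, 14.9 and 11.0 in ducts, and 15.1, 11.5 and 14.2 in stroma. It was detected on 3 of 3 TEB arrays, 1 of 2 duct arrays and 1 of 3 stroma arrays, and the scanner's own error was 22.9% to 73.9% of the signal. All TEB arrays lay above all others, with log2 differences of 0.41 against ducts (SE 0.18, adjusted p = 0.109) and 0.33 against stroma (SE 0.16, adjusted p = 0.107), neither of which passed. Ducts and stroma differed by -0.08 (adjusted p = 0.825). With normexp background correction the difference between TEBs and stroma turned to -0.30 and passed (adjusted p = 0.0223), and with quantile normalisation both differences to TEBs passed in the direction given.

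With the scaling used here miR-125b-5p was highest in ducts, again without passing the test. Its scaled signal was 825, 787 and 871 in TEBs, 1014 and 1002 in ducts, and 794, 754 and 934 in stroma. Both duct arrays lay above all 6 others, and TEBs and stroma overlapped. The log2 difference was -0.29 between TEBs and ducts (SE 0.12, 95% interval -0.57 to 0.00, adjusted p = 0.101), 0.29 between ducts and stroma (SE 0.12, 95% interval 0.01 to 0.58, adjusted p = 0.132) and 0.01 between TEBs and stroma (95% interval -0.25 to 0.26, adjusted p = 0.964). With the 75th percentile of all mouse miRNAs the difference between TEBs and ducts turned to 0.27. Without scaling miR-125b-5p passed the test in both comparisons with ducts, at -0.65 between TEBs and ducts (adjusted p = 0.0192) and 0.90 between ducts and stroma (adjusted p = 0.00535). With stroma replicate 3 left out the difference between ducts and stroma also passed, at 0.38 (adjusted p = 0.0378).

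miR-125a-5p had its lowest mean in ducts, where miR-125b-5p had its highest, and no difference passed. Its scaled signal was 148, 137 and 140 in TEBs, 138 and 119 in ducts, and 147, 152 and 142 in stroma. The duct arrays were the lower ones, although duct replicate 1 lay above the lowest TEB array. The log2 difference was 0.14 between TEBs and ducts (adjusted p = 0.315), -0.20 between ducts and stroma (adjusted p = 0.231) and -0.05 between TEBs and stroma (95% interval -0.27 to 0.17, adjusted p = 0.636). With quantile normalisation the difference between TEBs and ducts passed, and without scaling it turned to -0.22. The scanner's error was 9.19% to 10.8% of the signal for the 4 members other than miR-99b.

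**Figure D2:**
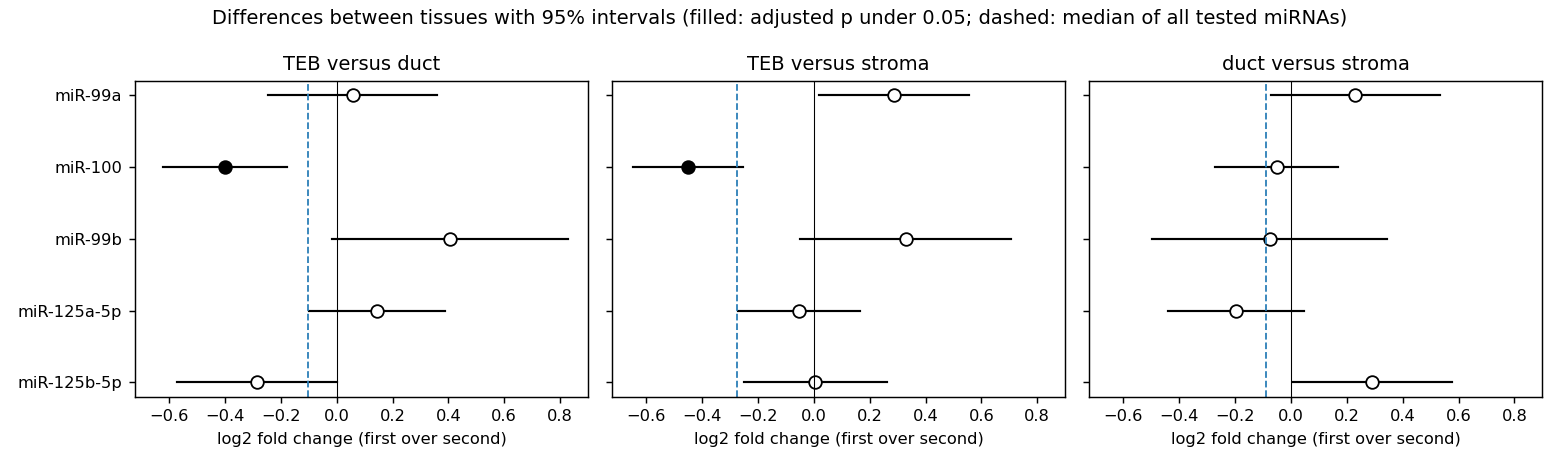
Differences in log2 scaled signal between tissues (horizontal axis, first tissue over second) for each member, with 95% intervals from the fit to all 8 arrays. Filled points had an adjusted p under 0.05, which holds for miR-100 in TEBs against ducts (-0.40, turning to 0.15 when scaled over all mouse miRNAs) and against stroma (-0.45), and the dashed lines mark the median of the 167 tested miRNAs.

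In each of the 3 comparisons the arrays of 3 of the 5 members did not overlap, which is 60.0%. Over all tested miRNAs that share was 65.3% between TEBs and ducts, 71.9% between TEBs and stroma and 42.5% between ducts and stroma. The median log2 difference of the 5 members was 0.06, 0.01 and -0.05 in the same order, beside -0.10, -0.28 and -0.09 for all tested miRNAs. For 3 arrays against 2 or against 3 the smallest exact permutation p is 0.1.

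A ratio of signals within an array does not change when the array is rescaled, so the miRNAs were also compared with their cluster mates in that way. miR-100 fell relative to miR-125b-5p in TEBs compared with stroma. Around its mean over the 8 arrays, the log2 ratio was -0.27, -0.07 and -0.25 in TEBs, -0.06 and -0.11 in ducts, and 0.38, 0.33 and 0.05 in stroma. All TEB and duct arrays lay below all stroma arrays. The difference between TEBs and stroma was -0.46 (SE 0.14, 95% interval -0.79 to -0.12, limma, adjusted p = 0.0265), beside 59.6% of all tested miRNAs called in their ratio to miR-125b-5p. TEBs and ducts differed by -0.11 (adjusted p = 0.598) and ducts and stroma by -0.34 (adjusted p = 0.164). The call between TEBs and stroma was lost without TEB replicate 1 or 3, either duct array, or stroma replicate 1 or 2, with differences of -0.56 to -0.39 over all arrays left out in turn.

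No difference of miR-99a from its cluster mate miR-125b-5p passed. The difference in their log2 ratio was 0.34 between TEBs and ducts (95% interval -0.05 to 0.74, adjusted p = 0.158), 0.28 between TEBs and stroma (95% interval -0.07 to 0.64, adjusted p = 0.139) and -0.06 between ducts and stroma (95% interval -0.46 to 0.34, adjusted p = 0.794). In TEBs against stroma the interval does not reach the -0.46 of miR-100 and leaves room for that size only in the other direction. In TEBs against ducts the -0.11 of miR-100 has an interval of -0.49 to 0.26, which overlaps that of miR-99a. Between ducts and stroma the -0.34 of miR-100 has an interval of -0.72 to 0.03, which overlaps as well. These intervals thus do not tell the 2 ratios apart in either comparison with ducts.

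miR-99b and miR-125a-5p, whose genes lie closest together, gave a log2 ratio around its mean of 0.22, 0.16 and 0.24 in TEBs, 0.06 and -0.17 in ducts, and -0.01, -0.45 and -0.05 in stroma. Every TEB array lay above all others. The difference between TEBs and stroma was 0.38 (SE 0.15, adjusted p = 0.0637) and that between TEBs and ducts 0.26 (adjusted p = 0.250), so neither passed. Ducts and stroma differed by 0.12 (adjusted p = 0.700). With normexp background correction these differences turned to -0.14, -0.03 and -0.11, and the signal of miR-99b was at the limit of detection in 3 of the 8 arrays where it was not called.

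The ratio of miR-99a to miR-100, which lie in different clusters but share their seed, separated all 3 tissues. This pair was chosen after its values were seen. Around its mean, the log2 ratio was 0.25, 0.47 and 0.45 in TEBs, -0.11 and -0.02 in ducts, and -0.45, -0.32 and -0.27 in stroma. TEB arrays were highest, duct arrays intermediate and stroma arrays lowest, with no overlap between any of the tissues. How many tested miRNAs also separate the tissues in their ratio to miR-100 was not counted. In their levels, 65.3% did not overlap between TEBs and ducts, 71.9% between TEBs and stroma and 42.5% between ducts and stroma. TEBs exceeded stroma by 0.74, or 1.67-fold (SE 0.11, 95% interval 0.48 to 1.0, limma, adjusted p = 0.00186), beside 58.4% of all tested miRNAs called in their ratio to miR-100. This difference passed in each of the 16 alternative settings tried, at 0.59 to 0.81 with adjusted p of 4.11e-05 to 0.0131. TEBs exceeded ducts by 0.46 (SE 0.12, adjusted p = 0.0348, beside 30.7% called), a call that was lost in 8 of the 16, among them leaving out TEB replicate 2 or 3 or either duct array, with adjusted p of 0.0132 to 0.294 over the 16. Ducts exceeded stroma by 0.28 (95% interval -0.01 to 0.58, adjusted p = 0.180), which did not pass.

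**Figure D3:**
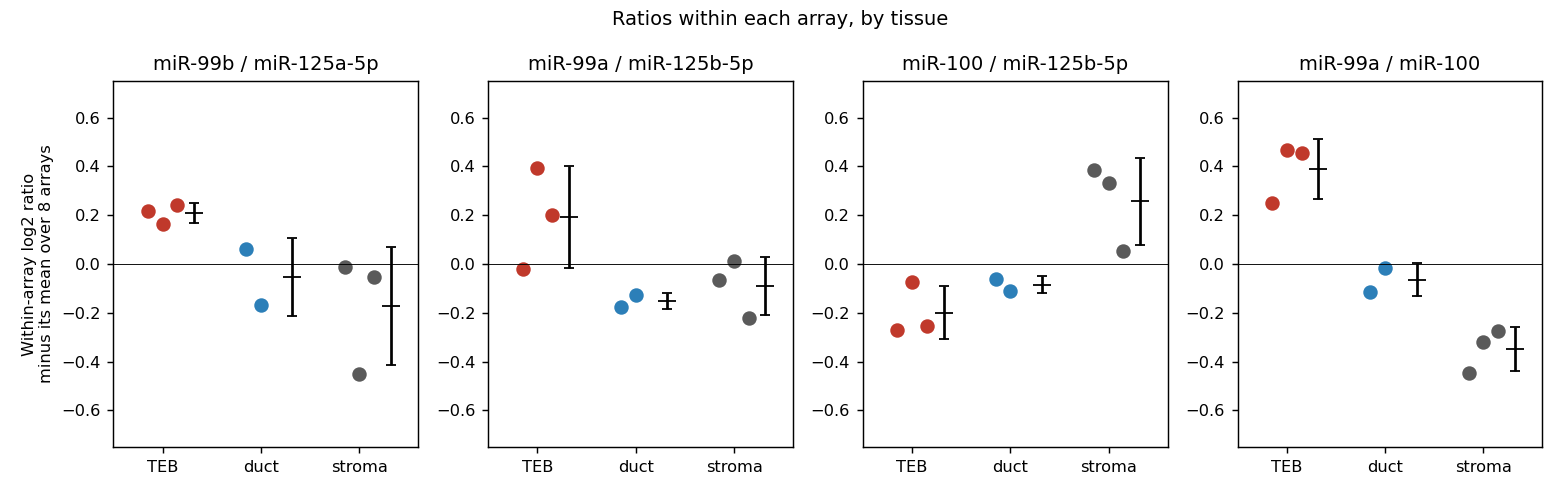
Log2 ratio of 2 miRNAs on the same array minus its mean over the 8 arrays (vertical axis), for the 3 pairs of cluster mates and for miR-99a to miR-100. Points are arrays and bars are the mean ± SD of the tissue. For miR-99a to miR-100, a pair chosen after its values were seen, the tissues do not overlap, from 0.25 to 0.47 in TEBs down to -0.45 to -0.27 in stroma.

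With 5 members there are 10 such pairs, of which 7 were added after the values were seen. Between TEBs and stroma all 4 pairs that include miR-100 passed, with adjusted p of 0.00186 to 0.0265, and 0 of the 6 pairs without it did. Between TEBs and ducts 3 of the 4 pairs with miR-100 passed, as did 1 of the 6 others, miR-99b to miR-125b-5p (0.69, adjusted p = 0.0420). Between ducts and stroma 0 of the 10 passed, with adjusted p of 0.0802 at the lowest. Among all tested miRNAs, the share called between TEBs and ducts was 41% for ratios to miR-125a-5p, 19.9% for ratios to miR-125b-5p and 33.1% for ratios to miR-99b. The share between TEBs and stroma was 59% for ratios to miR-125a-5p and 60.2% for ratios to miR-99b. Between ducts and stroma it was 16.3% for ratios to miR-125a-5p, 27.1% for ratios to miR-125b-5p, 18.7% for ratios to miR-100 and 9.04% for ratios to miR-99b. The 4 pairs with miR-100 share its values and are not independent of each other. miR-125a-5p to miR-125b-5p, the pair that shares the miR-125 seed, differed by 0.43 between TEBs and ducts (adjusted p = 0.0978) and by -0.49 between ducts and stroma (adjusted p = 0.0802).

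The let-7 miRNAs of the clusters, which act on growth and developmental timing genes, were mostly not called. let-7c, of the miR-99a cluster, differed by -0.08 between TEBs and ducts, -0.02 between TEBs and stroma and 0.06 between ducts and stroma on the log2 scale. let-7e, of the miR-99b cluster, gave -0.03, -0.06 and -0.03. Neither was called in any comparison, with adjusted p of 0.503 and above for let-7c and of 0.638 and above for let-7e. let-7a, of the miR-100 cluster, was lower in TEBs than in stroma by -0.28 (SE 0.091, adjusted p = 0.0335) and was not called in the other comparisons. That call was lost under each of the other scalings. The difference turned to 0.12 with the scaling over all mouse miRNAs, was 0 with quantile normalisation and -0.03 without scaling (limma, adjusted p = 0.879). Under the scaling used here the 3 TEB arrays of let-7a lay below its 3 stroma arrays, in the same direction as miR-100. The ratio of miR-100 to let-7a between TEBs and stroma was -0.17 (95% interval -0.47 to 0.12, adjusted p = 0.256).

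Among 6 ratios of members to the let-7 miRNA of their cluster, 0 passed in TEBs against ducts, 0 in TEBs against stroma and 1 in ducts against stroma. That 1 was miR-125b-5p to let-7a, higher in ducts by 0.50 (SE 0.13, adjusted p = 0.0391, beside 20.5% of all tested miRNAs called in their ratio to let-7a). Of all tested miRNAs, 18.7% were called in their ratio to let-7a between TEBs and ducts and 57.8% between TEBs and stroma. For ratios to let-7c the shares were 20.5%, 63.3% and 24.1% in TEBs against ducts, TEBs against stroma and ducts against stroma, and for ratios to let-7e they were 16.3%, 60.2% and 15.1%. Of the other 6 let-7 family miRNAs (let-7b, let-7d, let-7f, let-7g, let-7i and miR-98), 0 were called between TEBs and ducts, 3 were lower in TEBs than in stroma and 2 were lower in ducts than in stroma. let-7g, which was called in both, was lower than in stroma by -0.57 in TEBs (adjusted p = 0.00337) and by -0.46 in ducts (adjusted p = 0.0277). Scaled over all mouse miRNAs neither difference of let-7g passed (-0.18, adjusted p = 0.623 and -0.62, adjusted p = 0.288), and without scaling that of TEBs did not (-0.32, adjusted p = 0.137). Scaled over all mouse miRNAs let-7d turned to 0.09 and let-7f to 0.0045 in TEBs against stroma, and without scaling let-7f turned to 0.21 and let-7g to 0.15 in ducts against stroma. With quantile normalisation let-7d turned to 0.06 in TEBs against stroma and let-7f to 0.11 there and 0.13 in ducts against stroma.

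**Figure D4:**
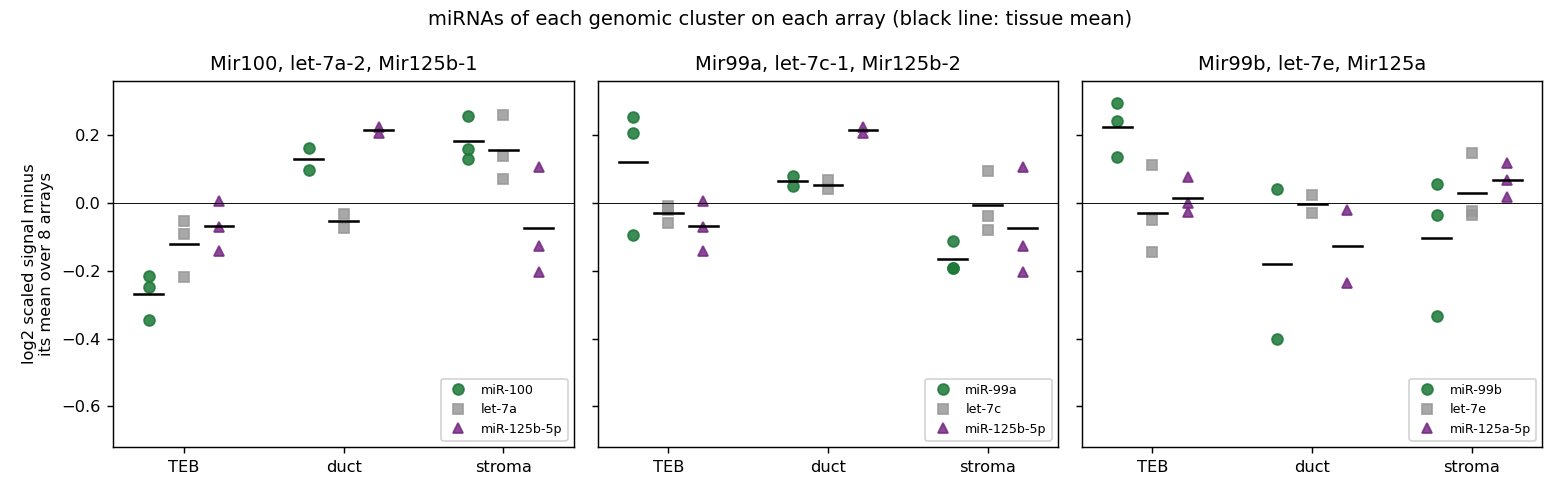
Log2 scaled signal minus its mean over the 8 arrays (vertical axis) for the miRNAs of each of the 3 clusters, by tissue; points are arrays and black lines tissue means. miR-125b-5p is drawn in 2 panels because both of its genes yield the same mature miRNA. Of the miRNAs drawn only miR-100 and let-7a have all TEB arrays below all stroma arrays under the scaling used here. The mean difference of let-7a turns with the scaling over all mouse miRNAs and is 0 with quantile normalisation.

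miR-10a and miR-10b, relatives of the miR-99 family encoded in the Hox gene clusters, were also lower in TEBs than in both other tissues. miR-10a was lower in TEBs by -0.50 against ducts (adjusted p = 0.0148) and by -0.69 against stroma (adjusted p = 0.000642), and miR-10b by -0.79 (adjusted p = 0.0201) and -0.79 (adjusted p = 0.00440). Scaled over all mouse miRNAs, miR-10a in TEBs against ducts turned to 0.05 and none of the 4 differences passed. With quantile normalisation those against ducts did not pass (limma, adjusted p = 0.0611 and 0.0848), whereas those against stroma did. Without scaling those against stroma did not pass (adjusted p = 0.0620 and 0.0771), whereas those against ducts did. Neither was called between ducts and stroma. Their seeds were not that of miR-100, as the RefSeq sequences show.
miR-10a: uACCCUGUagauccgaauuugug
miR-10b: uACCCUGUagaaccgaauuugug

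miR-10a was also the tested miRNA whose log2 signal followed miR-100 most closely over the 8 arrays (Pearson r = 0.94), before miR-434-3p and miR-329 (both r = 0.93). For miR-99a the closest were miR-34a (r = 0.97), miR-199a-3p (r = 0.93) and miR-199a-5p (r = 0.92). For miR-99b they were miR-93 (r = 0.82), miR-494 (r = 0.74) and miR-31 (r = 0.73), for miR-125a-5p miR-720 (r = 0.78), miR-342-3p (r = 0.70) and miR-494 (r = 0.64), and for miR-125b-5p miR-379 (r = 0.88), miR-146b (r = 0.87) and miR-1895 (r = 0.78). These were picked as the highest of all tested miRNAs, so most pairs named beforehand fall below them. Ranks of each pair are given among the 166 other miRNAs, from the highest r, seen from the first and then the second miRNA. miR-99a and miR-100 gave r = -0.53 (ranks 121 and 126), and miR-125a-5p and miR-125b-5p r = -0.69 (161 and 164). The cluster mates gave r = 0.40 for miR-99b and miR-125a-5p (31 and 22) and 0.26 for miR-99a and miR-125b-5p (58 and 47). For miR-100 and miR-125b-5p it was 0.26 (93 and 44). These values describe 8 arrays of 3 tissues that share a scaling and may share a slide, and carry no test.

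Markers of other cell types moved with some of these differences. In TEBs against stroma, where miR-100 was lower, the 3 adipocyte-linked miRNAs (miR-378, miR-378* and miR-193b) were all lower in TEBs. So were the 2 red cell miRNAs (miR-451 and miR-144) and miR-126-3p, the endothelial marker that could be tested. Both red cell calls were lost when scaled over all mouse miRNAs (limma, adjusted p = 0.342 and 0.178), with quantile normalisation (0.0685 and 0.163) and without scaling (0.174 and 0.0918). Scaled over all mouse miRNAs, miR-193b (adjusted p = 0.0824) and miR-126-3p (adjusted p = 0.0513) did not pass either. The summed signal of the adipocyte-linked list was 461 to 695 in TEBs, 383 to 518 in ducts and 1197 to 1540 in stroma. In TEBs against ducts 0 of the 3 adipocyte-linked, 0 of the 2 red cell and 0 of the 1 testable endothelial markers were called, and the adipocyte-linked sums of TEBs and ducts overlapped. The red cell sums did not overlap there, at 1370 to 1902 in TEBs and 2591 to 3276 in ducts. The TEB and duct arrays did not overlap either for miR-451 (-0.85, adjusted p = 0.0657) or for miR-126-3p (-0.45, adjusted p = 0.0825, turning to 0.10 when scaled over all mouse miRNAs). Nor did they for the 2 testable skeletal muscle miRNAs, miR-133a (-1.16, adjusted p = 0.0657) and miR-133b (-1.32, adjusted p = 0.148). Neither of these 2 was called, but both passed without scaling (limma, adjusted p = 0.0192 and 0.0494). Of the 2 testable leukocyte miRNAs, miR-223 was lower in TEBs than in stroma (-0.64, adjusted p = 0.0199). That call was lost when scaled over all mouse miRNAs (adjusted p = 0.491) and without scaling (adjusted p = 0.158). Of the 8 tested epithelial miRNAs, 3 were called between TEBs and ducts. miR-200a was lower in TEBs (-1.57, adjusted p = 0.000370), and miR-183 (0.68, adjusted p = 0.0148) and miR-96 (0.48, adjusted p = 0.0466) were higher. Without scaling miR-183 and miR-96 did not pass (limma, adjusted p = 0.155 and 0.595). Of 5 tested fibroblast and smooth muscle miRNAs, 3 were higher in TEBs than in stroma (miR-199a-3p, miR-199a-5p and miR-214) and 1 was lower (miR-143). miR-143 was also lower in TEBs than in ducts. Its call against stroma was lost when scaled over all mouse miRNAs, with quantile normalisation and without scaling (limma, adjusted p = 0.986, 0.208 and 0.605). That against ducts was lost when scaled over all mouse miRNAs and with quantile normalisation (0.875 and 0.0743). The summed signal of the fibroblast and smooth muscle list was 4066 to 5239 in TEBs, 4873 to 5044 in ducts and 4001 to 4183 in stroma. The part of these markers in the differences of miR-100 and miR-99a was not tested.

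The labels give no slide position, and slide rows were inferred from position numbers in the names of the raw scans. By these numbers both of the 2 rows held arrays of every tissue. The first held 2 TEB, 1 duct and 1 stroma arrays, and the second 1 TEB, 1 duct and 2 stroma arrays. Within the rows miR-100 was lower in TEBs than in ducts by -0.44 and -0.34, and lower than in stroma by -0.54 and -0.39. For miR-99a the difference between TEBs and stroma was 0.27 and 0.36, and for the ratio of miR-100 to miR-125b-5p it was -0.56 and -0.45.

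**Figure D5:**
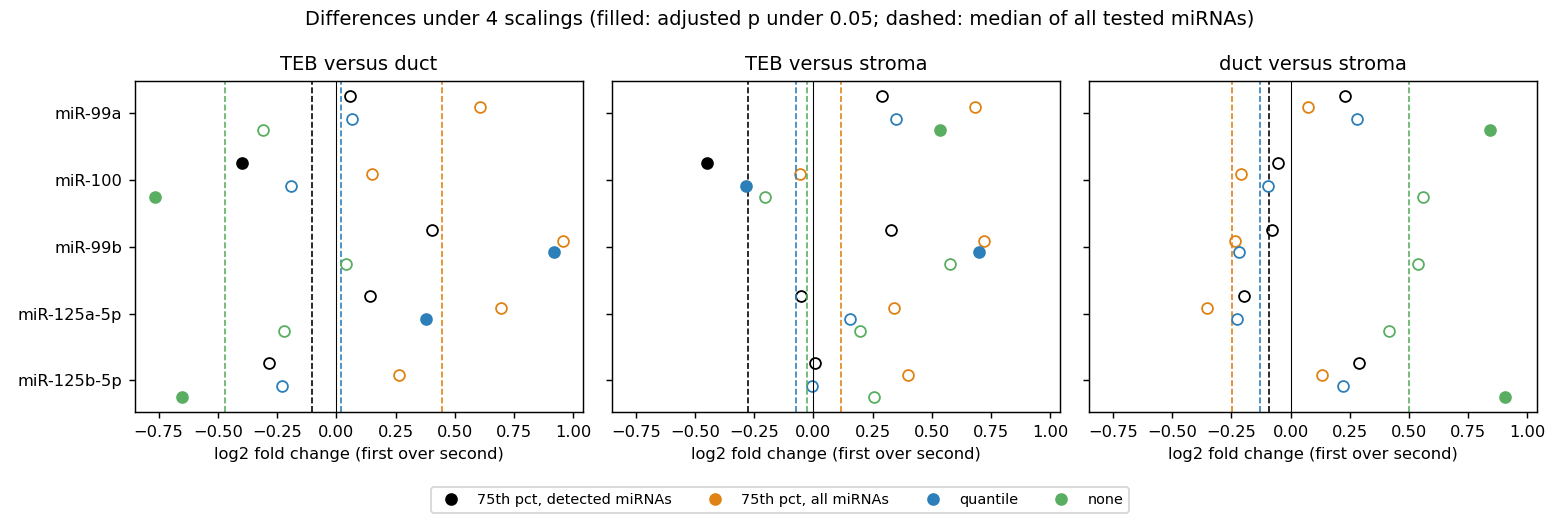
Log2 differences of each member (horizontal axis, first tissue over second) under 4 ways of scaling the arrays, with filled points for an adjusted p under 0.05 and dashed lines for the median of all tested miRNAs under the same scaling. For miR-100 in TEBs against ducts the difference runs from -0.76 without scaling to 0.15 with the 75th percentile of all mouse miRNAs, while the median runs from -0.47 to 0.45.

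The other arms of the hairpins were at or below background. miR-99b*, miR-125b-3p and miR-125b* were detected on 0 of 8 arrays. miR-125a-3p was detected on 1 array, TEB replicate 1, at a scaled signal of 14.9, with 5.82 and 11.2 on the other TEB arrays and -4.20 to 8.22 on the duct and stroma arrays. miR-351, which shares the miR-125 seed, was detected on duct replicate 1 alone, at 35.9, and had 12.6 on the other duct array, 1.28 to 4.90 in TEBs and 12.6 to 29.9 in stroma. None of these passed the filter for testing.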

How the data were processed

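The 8 arrays (3 of TEBs, 2 of mature ducts, 3 of stroma) were grouped by the region in the labels. The authors deposited, per array, the total signal intensity of each miRNA from Agilent Feature Extraction 9.5.3 (version per the submitters' processing notes), made from 100 ng of Cy3-labelled total RNA on a single-colour mouse miRNA array, with its error and a detection flag. These intensities are background-subtracted and not normalised between arrays. The authors also deposited a value table on a log2 scale, which followed the log2 scanner signals with r of 0.990 to 0.999 and was used as an alternative only. Its centring is not given in the sources used here. Column medians were 1.57 to 1.69, and 0.17 for duct replicate 1.

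After 39 viral and other probes and 22 control features were left out, each array was scaled by its 75th percentile over the 108 miRNAs detected on all 8 arrays (factors of 0.750 to 1.36). Signals under 1 were set to 1 and log2 was taken. All 8 arrays entered a single limma fit (version 3.58.1, R 4.3.3; lmFit, contrasts.fit, eBayes) of the 167 miRNAs that at least 1 tissue showed as detected throughout, with Benjamini-Hochberg adjustment within each comparison and a threshold of 0.05. Ratios subtracted the log2 signal of the reference miRNA on the same array and were fitted likewise over the other 166. Of 48 tests of 16 pairs, 9 (3 pairs) were in the design. Exact permutation tests are two-sided. The procedure was tested on simulated data.

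The members, gene lists and tests were chosen with earlier results of these data known. The miRNAs named were the members, the other arms of their hairpins, let-7, miR-10 and miR-351, marker lists, and for each member the 3 most correlated miRNAs. Arrays give no counts, so their number limits the precision. Alternatives changed the scaling, floor, background, filter, model or arrays.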

Additional observations from a re-analysis of the deposited data

How the results depend on the processing

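Which members were called depended on the scaling and on single arrays. With the 75th percentile of all mouse miRNAs, 0 members were called in TEBs against ducts and 0 against stroma. Among all 167 tested miRNAs 30 and 66 were called there. The log2 differences then turned to 0.15 for miR-100 and 0.27 for miR-125b-5p in TEBs against ducts, and to 0.34 for miR-125a-5p in TEBs against stroma. With quantile normalisation 2 members were called in TEBs against ducts (miR-99b and miR-125a-5p) and 2 against stroma (miR-99b and miR-100). Among all tested miRNAs 42 and 101 were called. In TEBs against stroma miR-125a-5p then turned to 0.15 and miR-125b-5p to -0.0064. The deposited value table also gave 2 and 2 calls, beside 50 and 103 among all tested miRNAs. In TEBs against stroma it put miR-125a-5p at 0.14 and miR-125b-5p at -0.0063. Without scaling 2 members were called in TEBs against ducts (miR-100 and miR-125b-5p) and 2 in ducts against stroma (miR-99a and miR-125b-5p). In TEBs against stroma 1 was called (miR-99a), and the call of miR-100 there was lost (-0.20, limma, adjusted p = 0.353). Without scaling the calls among all tested miRNAs were 75 in TEBs against ducts, 82 in TEBs against stroma and 56 in ducts against stroma. miR-99a (-0.31) and miR-125a-5p (-0.22) then turned in TEBs against ducts, miR-125a-5p (0.20) in TEBs against stroma, and miR-99b (0.54), miR-100 (0.56) and miR-125a-5p (0.42) in ducts against stroma. With normexp the calls were 0, 3 and 1 in the order of TEBs against ducts, TEBs against stroma and ducts against stroma. Among all tested miRNAs they were 31, 128 and 66 in that order. With normexp miR-99b turned to -0.30 in TEBs against stroma. The cause of these changes was not tested beyond the shift of the median of all tested miRNAs, which in TEBs against ducts was -0.10 as reported, 0.45 with all mouse miRNAs, 0.02 with quantiles and -0.47 without scaling.

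eBayes with a trend and robust estimation gave 2 calls in TEBs against stroma, beside 108 among all tested miRNAs. A fit on the tissues compared gave 0 in TEBs against ducts, beside 28. The methods' t-test gave 0, 1 and 1 calls after Benjamini-Hochberg adjustment, beside 12, 85 and 26 among all tested miRNAs. At its unadjusted threshold of 0.05 it gave 2, 1 and 1. Left out in turn, the arrays gave 0 to 1, 1 to 2 and 0 to 1 calls. Over these the difference of miR-99a in TEBs against ducts ran from -0.0090 to 0.17, that of miR-125b-5p in TEBs against stroma from -0.058 to 0.10 and that of miR-99b in ducts against stroma from -0.30 to 0.14. Testing only miRNAs detected on all 8 arrays leaves out miR-99b and gave no count of members.

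Of the ratios, miR-99a to miR-100 in TEBs against stroma kept its direction and passed under every alternative run for it. In TEBs against ducts this ratio was no longer called with quantiles (0.26), the value table (0.23), a fit on the tissues compared (0.46) or without some arrays (0.41 to 0.53 over all), and in ducts against stroma it was called with normexp (0.35). miR-100 to miR-125b-5p in TEBs against stroma was no longer called with quantiles (-0.28), the value table (-0.26), a fit on the tissues compared (-0.46) or without some arrays (-0.56 to -0.39). In ducts against stroma it was called with normexp (-0.42). In TEBs against ducts it turned with quantiles (0.038), the value table (0.048) and normexp (0.00011). miR-99a to miR-125b-5p turned in ducts against stroma with quantiles (0.059) and the value table (0.054). miR-99b to miR-125a-5p turned with normexp, to -0.030, -0.14 and -0.11 in the order above, and ran from -0.020 to 0.23 over the arrays left out in ducts against stroma.

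Whether the replicate numbers pair the samples is not known, and correlations between so few arrays cannot decide it. The 2 duct arrays deviate from their mean by equal and opposite amounts, which fixes part of these correlations in advance. Deviations from the tissue means had a mean r of -0.10 in the 7 pairs of arrays that share a number across tissues and of 0.05 in the 14 pairs that do not. A limma fit with the replicate block called 0, 2 and 0 members, beside 16, 108 and 31 of all tested miRNAs. It put miR-99a to miR-100 in TEBs against ducts at 0.42 with an adjusted p of 0.0634.

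Among all 167 miRNAs, the calls in TEBs against ducts, 41 as reported, were 75 without scaling, 18 with no detection filter, 16 with the block, 12 with the methods' t-test and 5 to 25 without 1 of 3 arrays. In TEBs against stroma, 108 became 66 with all mouse miRNAs. In ducts against stroma, 36 became 19 with all mouse miRNAs, 56 without scaling, 66 with normexp and 21 without 1 array. Signal close to background limits miR-99b, and 2 duct arrays limit every comparison with ducts.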
